A study of Rattus norvegicus with 2 samples.

Results

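Janus kinases (JAKs) and signal transducers and activators of transcription (STATs) carry the signals of cytokines, the secreted proteins by which immune cells instruct each other, into natural killer (NK) cells. NK cells are innate lymphocytes that destroy infected or transformed cells, and their survival, growth and killing depend on such signals. The genes described here are the 4 Janus kinase genes Jak1, Jak2, Jak3 and Tyk2, and the 5 STAT genes Stat3, Stat4, Stat5a, Stat5b and Stat6. They were chosen by name, and every probe set that the array's annotation assigns to 1 of these symbols was included. A probe set is a group of short probes on the array that reads 1 transcript. All 9 genes were found, on 11 probe sets, among 14217 genes read by 20826 probe sets with a single symbol. Jak1 and Stat3 had 2 probe sets each and the other 7 genes had 1.

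The study hybridised 2 expression arrays, 1 for each of 2 NK cell populations sorted from rat spleen, and asked how their transcripts differ. Both populations came from PVG.7b rats 8 to 12 weeks old, 9 rats in all. Spleen cells were first depleted with antibodies to TCRαβ, CD68, CD5, Igκ and CD45RA, and the remaining CD3- NKR-P1A+ cells were sorted to over 90% purity. The NKR-P1B+ cells carried the inhibitory lectin-like receptor NKR-P1B and no Ly49s3, and the Ly49s3+ cells carried the activating receptor Ly49s3 and no NKR-P1B. The labels do not say how the rats were shared or pooled between the arrays. With 1 array per population there were no replicates and no test was possible, so each difference describes these 2 arrays. In such bulk samples, fewer cells of a type and less RNA per cell cannot be told apart.

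In the textbook scheme, cytokine receptors have no enzyme activity of their own and hold a pair of JAKs on their inner tails. When the cytokine brings the chains together the JAKs phosphorylate each other and the receptor, STAT proteins dock there and are phosphorylated in turn, and STAT dimers enter the nucleus and bind DNA. Interleukin 2 and interleukin 15, which sustain NK cells, use Jak1 and Jak3 and mainly the STAT5 proteins. Interleukin 12 uses Jak2 and Tyk2 and activates Stat4, interleukin 4 activates Stat6, and the interleukin 6 and interleukin 10 families activate Stat3. Activity depends on phosphorylation, which these arrays do not measure.

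None of the 9 genes differed between the 2 populations by as much as 1.5-fold. All 11 probe sets were above the floor on both arrays. The floor is a signal of 20.4, the median of all non-control signals, and lower signals were set to it before any ratio was taken. Of the 11 probe sets 5 were nominally higher in NKR-P1B+ cells, 5 were higher in Ly49s3+ cells and 1 was equal. The log2 differences, NKR-P1B+ minus Ly49s3+, ran from −0.36 for Stat6 to 0.35 for Stat5b. Their median was 0.00, beside −0.03 over all 16465 measured probe sets, meaning those above the floor on at least 1 array. Over all measured probe sets 11.3% were at least 1.5-fold apart in either direction, against 0 of the 11. Among the 10742 probe sets within the members' range of mean signal the share was 8.48%. At that share fewer than 1 probe set would be counted in a group of 11, so 0 of 11 is near the background and is no result about these genes. Signals of different probe sets depend on their probes and were not compared with each other as levels.

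**Figure D1:**
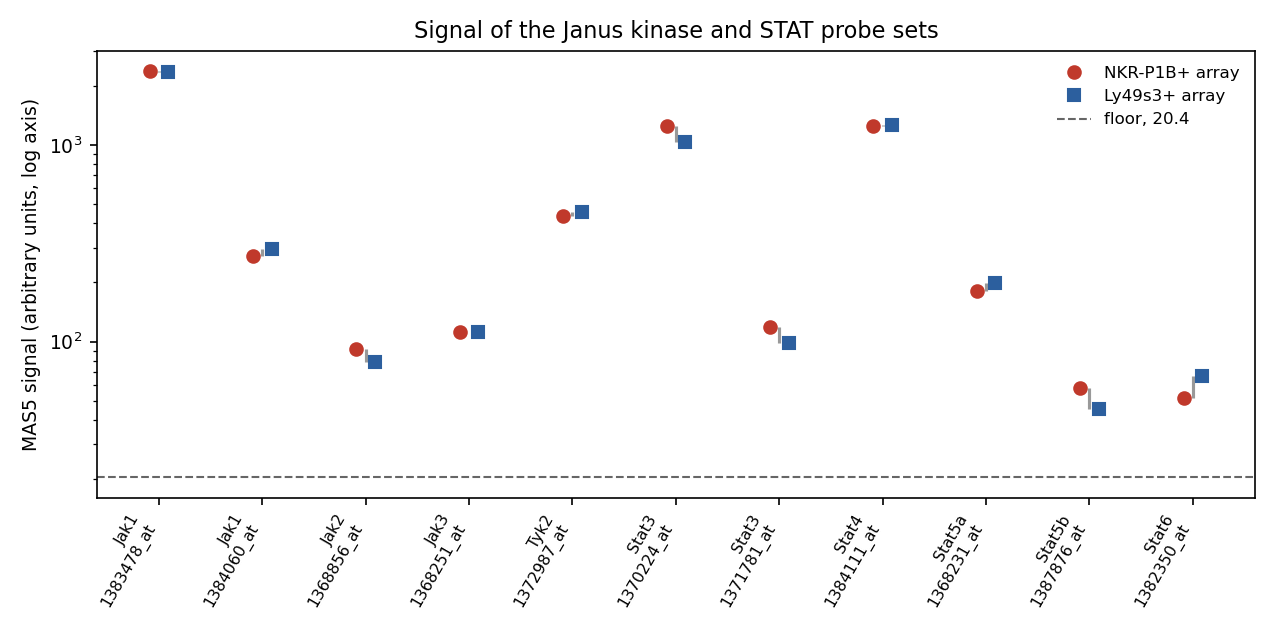
Signal of each of the 11 probe sets in NKR-P1B+ cells (circles) and Ly49s3+ cells (squares), in arbitrary units on a log axis, with 1 array per population and the floor of 20.4 as a dashed line. The circle and the square of each probe set lie close together, the widest gap being that of Stat6 at 51.7 and 66.4.

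Jak1 pairs with nearly every cytokine receptor family of lymphocytes. Its brighter probe set, 1383478_at, had a signal of 2372 in NKR-P1B+ cells and 2351 in Ly49s3+ cells. The signals differed by 0.92%, a log2 difference of 0.01. Its other probe set, 1384060_at, had 272 and 294, a log2 difference of −0.11. The probe sets thus lay on opposite sides of 0, with a gap of 0.12 between them, and neither gave a difference of more than 1.08-fold.

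Jak3 binds only to the common gamma chain, the receptor chain shared by interleukins 2, 4, 7, 9, 15 and 21. Its probe set, 1368251_at, gave 112.2 on both arrays. Jak2, which serves the interferon gamma, interleukin 12 and many growth factor receptors, had 91.1 in NKR-P1B+ cells and 78.8 in Ly49s3+ cells on probe set 1368856_at. That is 1.16-fold higher in NKR-P1B+ cells, a log2 difference of 0.21, the widest among the Janus kinases. Tyk2, the kinase of the type I interferon and interleukin 12 receptors, had 433 and 454 on probe set 1372987_at, a log2 difference of −0.07. Over the 5 Janus kinase probe sets the differences ran from −0.11 to 0.21 with a median of 0.00.

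Stat3 was the only STAT gene with more than 1 probe set, and both ran the same way. Probe set 1370224_at had 1242 in NKR-P1B+ cells and 1033 in Ly49s3+ cells, 1.20-fold higher in the former. Probe set 1371781_at had 118.5 and 97.7, 1.21-fold higher on the same array. The log2 differences were 0.27 and 0.28, so that the probe sets lay 0.01 apart.

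Stat4, which carries the interleukin 12 signal that leads to interferon gamma production, had 1245 in NKR-P1B+ cells and 1262 in Ly49s3+ cells on probe set 1384111_at. The array with the higher signal exceeded the other by 1.37%, a log2 difference of −0.02. Stat4 and the brighter Jak1 probe set were, after Jak3, the probe sets with the smallest differences.

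Stat5a and Stat5b encode closely similar proteins that act downstream of interleukins 2 and 15, and their probe sets ran in opposite directions. Stat5a had 180 in NKR-P1B+ cells and 198 in Ly49s3+ cells on probe set 1368231_at, a log2 difference of −0.14. Stat5b had 57.9 and 45.3 on probe set 1387876_at, 1.28-fold higher in NKR-P1B+ cells. Stat5b lay near the floor, with its lower signal 2.22 times the floor. The Stat5b difference exceeded the Stat5a difference by 0.49 on the log2 scale. The spread between probe sets of 1 gene gives an SD of 0.40 for such a contrast of a pair.

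Stat6, the factor of interleukin 4 and interleukin 13 signalling, had 51.7 in NKR-P1B+ cells and 66.4 in Ly49s3+ cells on probe set 1382350_at. It was 1.28-fold higher in Ly49s3+ cells, and its lower signal was 2.53 times the floor. Over the 6 STAT probe sets the differences ran from −0.36 to 0.35, a wider range than that of the Janus kinases, and 3 lay in each direction.

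The precision of such differences was described from genes read by several probe sets, taking the gap between a gene's probe sets and dividing its SD by the square root of 2. This SD was 0.29 on the log2 scale for signals from 50 to 200 (364 genes), 0.18 from 200 to 1000 (272 genes) and 0.10 above 1000 (45 genes). Each value used only genes whose 2 brightest probe sets both lay in that range, which those of Stat3 do not. Over all 1993 genes with such a pair, whatever the ranges, the SD was 0.27. Variation among rats, between sorts or between arrays is in none of these SDs, since each population has 1 array. Of the 11 probe sets 8 differed by less than 1 SD of their signal range. The other 3 were the brighter Stat3 probe set at 2.71 SD, Stat6 at 1.27 SD and Stat5b at 1.24 SD. The brighter Stat3 difference, 0.2652, was just under the SD over all pairs, 0.2673. The mean signals of Stat6 and Stat5b lay just above 50. From the floor to 50 the SD was 0.37 (86 genes), and their differences of −0.36 and 0.35 lie within it. The dimmer Stat3 probe set lay within 1 SD at its lower signal.

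Each difference was also placed among those of the 500 measured probe sets nearest to it in mean signal. Of these neighbours, 25.2% differed by more than the brighter Stat3 probe set and 36.2% by more than the dimmer one. For Stat6 the share was 32.4%, for Stat5b 38.8% and for Jak2 52.8%. It was 61.4% for Stat5a, 65.4% for the dimmer Jak1 probe set and 75.6% for Tyk2. The differences of Stat4, the brighter Jak1 probe set and Jak3 were smaller than those of 93.4%, 95.6% and 99.6% of their neighbours. No difference of these genes was thus exceeded by fewer than 25.2% of its neighbours.

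**Figure D2:**
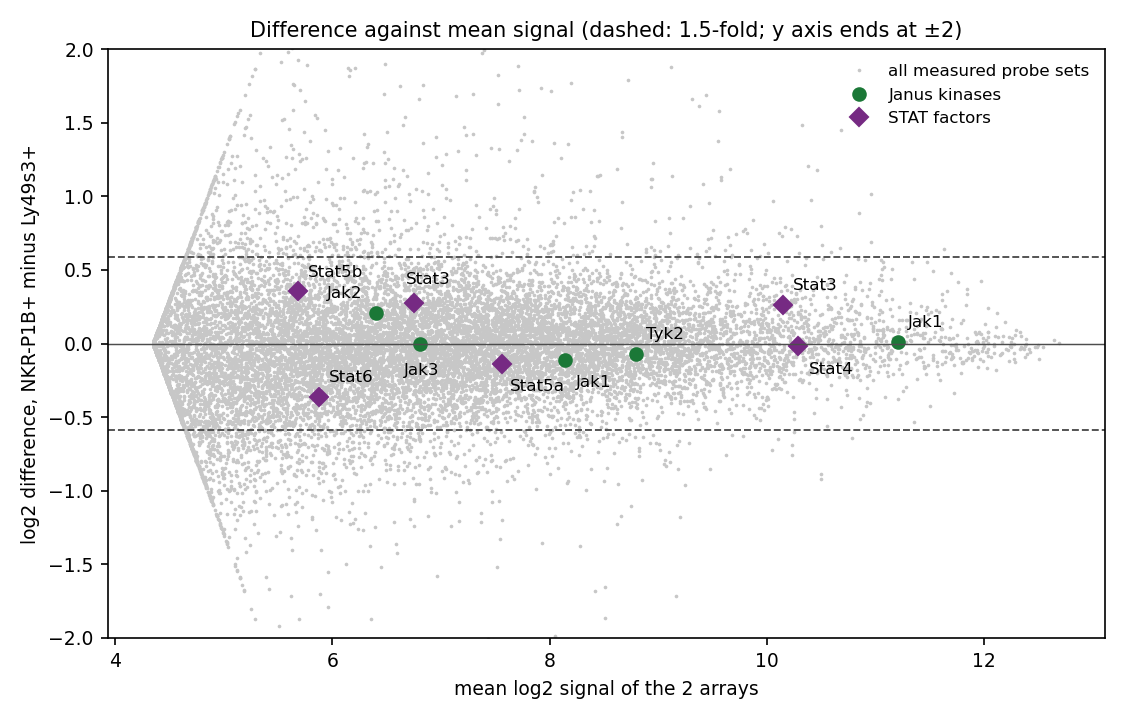
Log2 difference, NKR-P1B+ minus Ly49s3+, against the mean log2 signal of the 2 arrays for all measured probe sets (grey), Janus kinases (green circles) and STAT factors (purple diamonds), with dashed lines at 1.5-fold and differences beyond 2 outside the axis. All 11 points lie between the dashed lines, from −0.36 for Stat6 to 0.35 for Stat5b.

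These directions hold on the deposited scale. The poly-A spikes, control RNAs added to a sample before labelling, were lower in NKR-P1B+ cells in 11 of 12 probe sets, by a median of −0.54 on the log2 scale. Scaling the arrays to these spikes moved the median of all measured probe sets to 0.48 and that of the 11 member probe sets to 0.54. All 11 were then nominally higher in NKR-P1B+ cells, and Jak2, both Stat3 probe sets and Stat5b passed 1.5-fold, with Stat5b highest at 0.89. Relative to all measured probe sets the members' median was 0.06 higher under this scaling and 0.03 higher on the deposited scale. Which scale reflects RNA per cell was not tested.

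Under the other scales and floors tried, from 9 to 10 of the 10 probe sets with a direction kept it, and those that turned had differences near 0. Stat4 turned to 0.0044 with median centring. The brighter Jak1 probe set turned to −0.06 with quantile normalisation and to −0.01 with a loess trend subtracted. Stat6 had the lowest value of the 11 under each of these settings, from −0.36 to −0.23, and Stat5b ranged from 0.13 to 0.42. The lower Stat5b values came from the higher floor and from the added constant of 32, which both shrink differences of dim probe sets. The brighter Stat3 probe set stayed between 0.21 and 0.29.

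**Figure D3:**
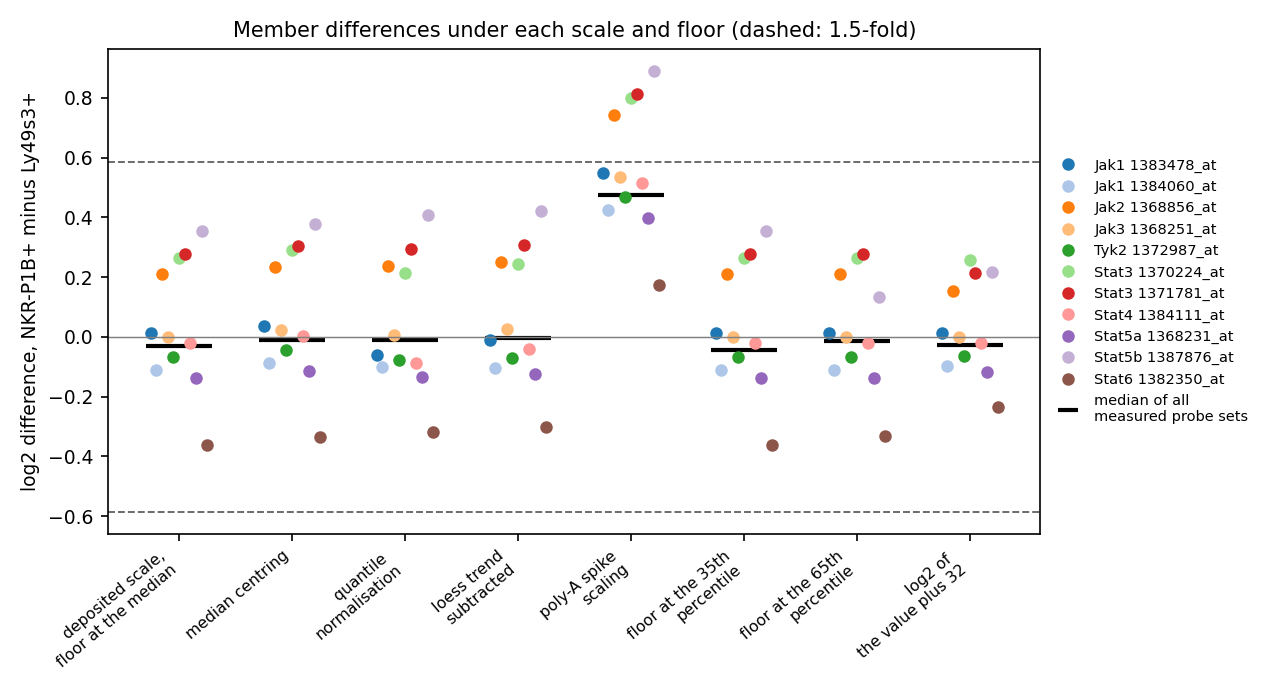
Log2 difference, NKR-P1B+ minus Ly49s3+, of the 11 probe sets (coloured points) under the deposited scale and the other scales and floors, with the median of all measured probe sets as a black bar and 1.5-fold as dashed lines. With poly-A spike scaling all points and the black bar shift up together, the bar to 0.48, while Stat6 stays lowest at 0.17.

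Some of the STAT genes also sit together in the genome. In the RefSeq table of the rat GRCr8 assembly, Stat3, Stat5a and Stat5b lie next to each other on chromosome 10, with no other protein-coding gene listed between them. The differences of the 3 neighbours on chromosome 10 were 0.27, −0.14 and 0.35, so the gene in the middle lay nominally on the other side of 0. That gene, Stat5a, lay within 1 SD of the spread between probe sets. With poly-A spike scaling all 3 were above 0, at 0.80, 0.40 and 0.89. RefSeq promoter entries were at hand for 6 of the 9 genes, namely Jak2, Stat3, Stat4, Stat5a, Stat5b and Stat6. The 250 bases before the annotated start were searched on both strands. The STAT binding motif TTCNNNGAA was found in none of the 6, beside 7.67% of 33469 rat promoters, and its wider form TTCNNNNGAA also in none, beside 6.25%. The GC box (GGGCGG or its complement CCGCCC), a binding motif of Sp1, was found in Jak2, Stat5a and Stat5b, beside 30.5% of all promoters. The ETS core (CCGGAA or TTCCGG) was found in Stat3, Stat5b and Stat6, beside 12.6%. Matches of different motifs can overlap in part, and the GC boxes and ETS cores shown here do not. A match describes letters and not a bound site, and the assembly is of another strain than PVG.7b.

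The windows of the 3 neighbours are shown because these genes share a place in the genome. GC boxes and ETS cores are in capitals, 5′ to 3′ on the gene's strand. A link of these sequences to the differences was not tested. Stat3 is chr10:86363360-86363609 on the minus strand, Stat5a chr10:86285609-86285858 on the plus strand and Stat5b chr10:86275953-86276202 on the minus strand, all GRCr8.
Stat3: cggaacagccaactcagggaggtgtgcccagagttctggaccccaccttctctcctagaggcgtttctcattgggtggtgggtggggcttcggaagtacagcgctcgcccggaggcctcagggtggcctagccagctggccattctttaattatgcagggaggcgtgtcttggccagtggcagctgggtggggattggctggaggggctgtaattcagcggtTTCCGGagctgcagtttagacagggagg
Stat5a: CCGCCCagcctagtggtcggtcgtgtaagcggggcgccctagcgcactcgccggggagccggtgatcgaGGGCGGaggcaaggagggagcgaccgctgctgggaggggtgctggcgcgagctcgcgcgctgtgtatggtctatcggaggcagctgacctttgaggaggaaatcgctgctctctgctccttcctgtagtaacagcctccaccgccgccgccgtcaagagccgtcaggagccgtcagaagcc
Stat5b: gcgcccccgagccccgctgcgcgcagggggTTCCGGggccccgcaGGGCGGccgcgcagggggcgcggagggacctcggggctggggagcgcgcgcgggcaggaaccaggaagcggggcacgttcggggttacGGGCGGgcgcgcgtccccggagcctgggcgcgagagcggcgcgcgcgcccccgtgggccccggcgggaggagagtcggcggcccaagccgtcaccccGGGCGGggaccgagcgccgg
Their G and C content was 60.8%, 67.6% and 84.0%, beside a median of 51.2% over all promoters. The Stat3 window held 1 ETS core and no GC box, that of Stat5a 2 GC boxes, and that of Stat5b 3 GC boxes and 1 ETS core. Stat5a and Stat5b lie on opposite strands and are transcribed away from each other.

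Around the 9 genes, other parts of the pathway were taken from gene lists, with each gene represented by its brightest probe set. These lists, and those of targets and markers below, were chosen with earlier results of these data known. Their counts and medians are descriptions only. Of all 9114 measured genes, 5.11% were at least 1.5-fold higher in NKR-P1B+ cells and 5.73% in Ly49s3+ cells, and the median difference was −0.02. By sign alone, 4340 of them were nominally higher in NKR-P1B+ cells and 4753 in Ly49s3+ cells. Of 89 listed pathway genes other than the members 50 were measured, 4 of them at least 1.5-fold higher in NKR-P1B+ cells and 3 in Ly49s3+ cells. Stat2, a factor of interferon signalling, had 128 and 158, while its second probe set ran the other way at 129 and 119.5. Irf9, a DNA-binding factor of interferon signalling that joins Stat2, had 200 and 182.

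Receptor chains differed in both directions. Of 33 listed, 25 had a probe set and 18 were measured, 12 of them nominally higher in NKR-P1B+ cells, with a median of 0.23. Ifngr2, the interferon gamma receptor chain that holds Jak2, had 47.5 in NKR-P1B+ cells and 22.4 in Ly49s3+ cells, a 2.12-fold difference. The lower signal was close to the floor, and its second probe set was below the floor at 1.8 and 2.5. With the added constant its log2 difference was 0.55 in place of 1.08. Crlf2, a chain of the thymic stromal lymphopoietin receptor, had 119 and 59.0, and Csf2ra, the alpha chain of the granulocyte-macrophage colony-stimulating factor receptor, 37.0 and 23.7. Il6st, the shared chain upstream of Stat3, was 2.37-fold higher in Ly49s3+ cells at 165.6 against 70.0 on its brightest probe set. This is opposite to the nominal direction of Stat3. Its other measured probe sets had smaller log2 differences of −0.61 and −0.36, and the mean over its measured probe sets was −0.74. The erythropoietin receptor gene Epor, below the floor in NKR-P1B+ cells, had 15.5 and 35.8. With a higher floor, at the 65th percentile, or with the added constant, 2 receptor chain genes in place of 5 were 1.5-fold apart.

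For interleukins 2 and 15 the chains that hold Jak1 and Jak3 were measured too. Il2rg, the common gamma chain, had 2406 in NKR-P1B+ cells and 1881 in Ly49s3+ cells. Il2rb, the beta chain of both receptors, had 1935 and 1447, and was named after its values were seen. Their log2 differences of 0.36 and 0.42 were under 1.5-fold, and stand beside 0.01 for the brighter Jak1 probe set, 0.00 for Jak3 and −0.14 for Stat5a. Ifngr1, the other interferon gamma receptor chain, which holds Jak1, had 2564 and 2422. The interleukin 12 receptor genes had no probe set with their symbol, so of that route only Jak2, Tyk2 and Stat4 are described.

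Of 21 listed ligands 17 had a probe set and 5 were measured. Il4, which signals through Stat6, had 146 in NKR-P1B+ cells and 3.2 in Ly49s3+ cells, at least 7.18-fold higher against the floor. Osm, which encodes the Il6st ligand oncostatin M, had 58.1 and 87.3, and the interferon gamma gene Ifng 140 and 124. Of the inhibitors and phosphatases 0 of 17 measured genes were 1.5-fold apart, with a median of −0.07. With the floor at the 35th percentile the count was 2. Ptprc, which encodes the phosphatase CD45, had 3209 and 3358, while its second probe set ran the other way at 532 and 493. The ubiquitin ligase gene Cblb had 1730 and 1313. Adaptors and coactivators also had 0 of 8 measured genes 1.5-fold apart, with a median of 0.13. Beside shares of 5.11% and 5.73% per direction over all measured genes, counts of 0 in such short lists are near the background. The adaptor gene Grb2 had 595 and 542, and the STAT coactivator gene Crebbp 609 and 527. The other Crebbp probe sets lay on both sides of 0, with log2 differences from −0.23 to 0.40.

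**Figure D4:**
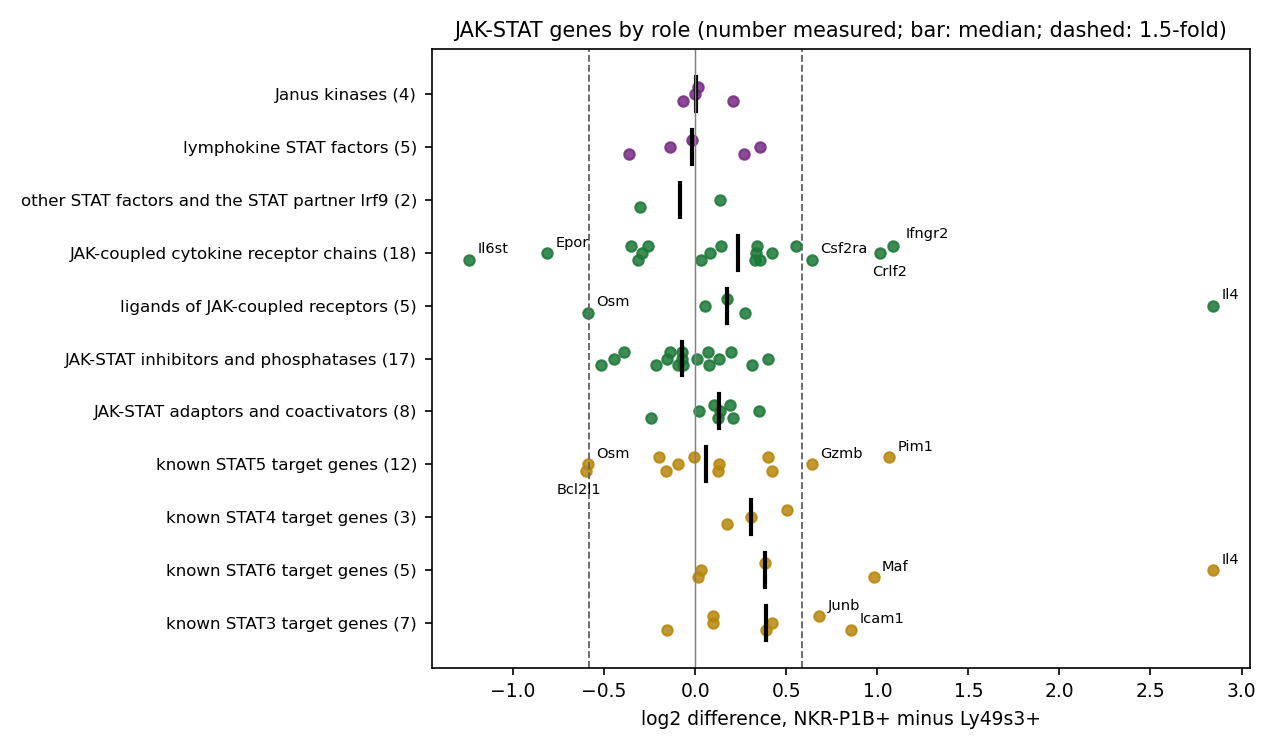
Log2 difference, NKR-P1B+ minus Ly49s3+, of each measured gene in the Janus kinase, STAT, pathway and known target lists, by its brightest probe set. The list's median is a black bar and 1.5-fold is shown as dashed lines. The 9 member genes lie inside the dashed lines, while receptor chains reach from −1.24 for Il6st to 1.08 for Ifngr2 and the point of Il4 at 2.84 is a lower bound.

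Genes known as targets of each STAT in lymphocytes were looked at beside the STAT genes themselves. Such genes answer to many factors, and a target's signal is no measure of STAT activity. Over all measured genes 5.11% were at least 1.5-fold higher in NKR-P1B+ cells and 5.73% in Ly49s3+ cells, the background for each target list. Of 12 measured STAT5 targets 2 were at least 1.5-fold higher on each array, with a median of 0.06. Pim1, a survival kinase, had 129.6 in NKR-P1B+ cells and 62.0 in Ly49s3+ cells, and the granzyme gene Gzmb 3973 and 2549. The survival gene Bcl2l1 had 72.0 and 109, and Osm, given above, is the other. Both genes higher in Ly49s3+ cells lay just past 1.5-fold, and with median centring the count was 2 in place of 4. The survival gene Mcl1 had 3312 and 3329 on its brightest probe set, and the perforin gene Prf1 4024 and 3006.

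The 3 measured STAT4 targets were within 1.5-fold, with Ifng as above and the protease gene Furin at 84.4 and 68.3, and a median of 0.31. Of 5 measured STAT6 targets all were nominally higher in NKR-P1B+ cells, beside 4340 of all 9114 measured genes. The median of the 5 was 0.38, while Stat6 itself was at −0.36. Il4 counted as measured only through its NKR-P1B+ signal, so its direction was fixed by that filter. With genes above the floor on both arrays only, the median was 0.21 and 1 gene was 1.5-fold apart. Besides Il4, the transcription factor gene Maf was 1.97-fold higher in NKR-P1B+ cells, at 68.4 against 34.7. Its other probe sets were below the floor on both arrays, at 8.8 and 5.3 and at 9.4 and 8.7. With the floor at the 65th percentile the Maf difference shrank from 0.98 to 0.37, under 1.5-fold, and the count of STAT6 targets past it was 1 in place of 2. The interleukin 4 receptor gene Il4r had 344 and 337, and the secretory factor gene Xbp1 460 and 455. Of 7 measured STAT3 targets 6 were nominally higher in NKR-P1B+ cells, beside 4340 of all 9114 measured genes. Icam1, an adhesion molecule, had 364 and 201 and the transcription factor gene Junb 1274 and 796, both at least 1.5-fold apart. The early response gene Fos had 3214 and 3003, and the repressor gene Bcl6 1286 and 961.5. The median of 0.39 became 0.10 when a gene was given the mean of its probe sets in place of the brightest.

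Markers of the labelled cell type were present, and most markers of other cells, T cell markers aside, were below the floor. All 9 NK cell markers with a probe set were above the floor, with Klrb1a, which encodes NKR-P1A, at 3740 and 3813 and a list median of 0.00. Of T cell markers 6 of 9 were measured, 3 nominally higher in each population, with summed signals of 1068 in NKR-P1B+ cells and 782 in Ly49s3+ cells. Cd4, at 3.3 and 20.6, counted as measured only through its Ly49s3+ signal, just above the floor, so its direction was fixed by that filter. With genes above the floor on both arrays only, the T cell list median was 0.57 in place of 0.28. Cd5, whose protein was a target of the depletion, had 92.7 and 40.8, and the T cell surface gene Cd6 had 273 and 179. The transcription factor gene Bcl11b had 637 and 429, under 1.5-fold. The CD3 chain gene Cd3g went the other way at 22.3 and 42.9, and the CD3 chain gene Cd3e was below the floor at 0.7 and 0.9. Of B and plasma cell markers 3 of 8 were measured, with sums of 212.5 and 112. Among them the immunoglobulin joining chain gene Jchain had 98.1 and 33.4 and the syndecan gene Sdc1 67.5 and 43.6. A second Jchain probe set had 22.2 and 11.7, near or below the floor. The mean over the Jchain probe sets gave a log2 difference of 0.84 in place of 1.55. Of macrophage and dendritic cell markers 3 of 13 were measured, with sums of 2701 and 2008, mostly Itgax at 2281 and 1716, which NK cells can express. The lysozyme gene Lyz2 had 356 and 133, the dendritic cell factor gene Batf3 had 4.2 and 83.2, and Cd68 and Csf1r were below the floor on both arrays. Cd3e, Cd4, Cd68 and Csf1r were named after their values were seen.

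Neutrophil and mast cell markers (2 of 8 measured) summed to 89.1 and 197, with the mast cell protease genes Mcpt10 at 51.5 and 147.6 and Cpa3 at 10 and 21. Erythroid and platelet markers (4 of 9) summed to 421 and 374, with the globin gene Hbb at 276 and 153 and the erythroid gene Hemgn at 50.6 and 131. Stromal markers (2 of 7) summed to 103 and 123, with the smooth muscle actin gene Acta2 at 33.5 and 49.8 and the von Willebrand factor gene Vwf at 23.9 and 30.9. The sums of the T cell, B cell and macrophage lists differ in the direction of the STAT3 and STAT6 target lists. So do those of the erythroid and platelet list and of the NK cell list, the latter at 23187 and 21712. The sums of the neutrophil and mast cell list and of the stromal list go the other way. The part of other cells in the target list results was not tested.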

How the data were processed

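The authors deposited 1 intensity value per probe set and array, on a linear scale in arbitrary units, made by MAS5 according to the submitters' processing notes. No source used here gives the program's version or scaling target. On the linear scale they have the same trimmed mean, 100.04, on both arrays. Of 31042 non-control probe sets, 20826 had 1 symbol in the platform annotation, 436 had several and 9780 had none listed; only the first kind was used for genes. All 9 member symbols matched RefSeq by gene number, and no several-symbol probe set held a member.

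Signals under the floor of 20.4 (the 50th percentile) were set to it and log2 differences taken. A gene in a list was read by its brightest probe set. With 1 array per population no p-value was computed, and the number of arrays limits the precision. Of each list the text names the 2 brightest genes and up to 3 per direction past 1.5-fold, and the few named outside this rule are marked. Members and lists were chosen with earlier results of these data known. Other settings were median centring, quantile normalisation, loess (span 0.3), poly-A spike scaling, other floors, an added constant of 32, probe sets above the floor on both arrays only, and the mean over a gene's probe sets. Python 3.11.15, numpy 2.4.6, pandas 2.3.3 and statsmodels 0.14.6 were used. The calculation was tested with fixed folds planted in copies of the NKR-P1B+ array, without added noise and in probe sets well above the floor.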

Additional observations from a re-analysis of the deposited data

How the results depend on the processing

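The counts of member probe sets (0) and member genes (0) at least 1.5-fold apart, and their median differences (0.00), kept their value or moved by less than the probe-set spread under all settings tried except poly-A spike scaling. That scaling gave 4 probe sets, 3 genes and medians of 0.54 for both, with all measured probe sets at 0.48. It moved the split of all measured probe sets 1.5-fold apart from 815 higher in NKR-P1B+ cells and 1051 in Ly49s3+ cells to 6018 and 167, by its construction as a shift of 1 array against the other. The lower floor gave 1591 and 2390, the higher floor 427 and 411, and the added constant 441 and 418, with 0 members among them. Of the other values recomputed (lists, named genes and single probe sets), 606 stayed within the spread or within 1.5 times the count and 63 moved, none of the latter a member probe set; with poly-A spike scaling 13 stayed and 74 moved. No value at least 1.5-fold apart changed sign. No paired analysis was possible because each population has 1 array, and for the same reason no array could be left out. The lower signals of Stat5b and Stat6 are 2.22 and 2.53 times the floor, where the spread between probe sets is wider than at high signal.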
